A study of Homo sapiens with 72 samples.

Results

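The late response to ultraviolet light was compared between cells without CSB and wild-type cells, as the difference of 2 differences. The comparison took 12 of the 72 libraries of the series, in 4 of its 24 groups with 3 libraries each. It was (CSB_KO at 20 h in DMSO minus CSB_KO untreated) minus (WT at 20 h in DMSO minus WT untreated), and it was tested across 15470 of the 19324 genes in the table. All 12 libraries were polyA RNA from HEK293 Flp-In T-REx, a human embryonic kidney cell line built to take a transgene at a fixed site. CSB_KO is the CSB knockout line, which the labels treat as a single line, and WT is the unedited line. Untreated cells had received neither ultraviolet light nor solvent. The 20 h cells were irradiated and later kept in DMSO, the solvent of an ATR inhibitor used elsewhere in the series. The design text counts the 20 h from irradiation and the sample descriptions count it from DMSO, so its origin was not settled. No source used here gives the ultraviolet dose, and no unirradiated 20 h cells were analysed here. Nothing in the labels says that the 3 libraries of a group came from separate cultures, so a p-value here reflects no more than library-to-library spread, which may be technical.

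CSB, the protein of the ERCC6 gene, is an ATPase that binds RNA polymerase II when it stalls at a lesion in the transcribed strand and recruits the factors of transcription-coupled repair, among them the ubiquitin ligase component CSA, UVSSA and TFIIH. Ultraviolet light makes pyrimidine dimers that stall the polymerase, and a longer transcribed region offers more places for a lesion. Loss of CSB causes Cockayne syndrome, and CSB-deficient cells are known for failing to resume RNA synthesis after ultraviolet light.

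The 12 libraries held 39.8 M to 153.4 M counts, with a median of 49.4 M. ERCC6 (chr10:49454168-49539538, GRCh38) had 23.4, 23.99 and 23.05 CPM, the counts scaled to a common library size, in the untreated WT libraries and 6.89, 6.403 and 7.62 in the untreated CSB_KO libraries. The groups did not overlap, and the line difference was -1.77 on the log2 scale. Its mRNA was thus reduced but present in the knockout line, and its late interaction did not pass the test (0.10 ± 0.11 SE, adjusted p = 0.4 by edgeR, with a change of sign to -0.27 under library totals alone). Of 13 kidney epithelium and HEK293 markers, 12 had a mean of at least 1 CPM in untreated WT and 11 in each of the other 3 groups, with PAX8 below that level in every group. WT untreated replicate 1 stood apart from its group, with a chi-square per gene of 35.6 and 37.7 against the other 2 libraries, where those 2 gave 3.85 against each other. With it the interaction was called in 4785 genes as higher and 5615 as lower, and without it in 4757 and 5537.

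Most genes changed differently in the 2 lines. The interaction passed the test (edgeR quasi-likelihood, Benjamini-Hochberg adjusted p under 0.05) in 10400 genes, 67.2% of those tested. It was higher in CSB_KO for 4785 genes (30.9%) and lower for 5615 (36.3%). An interaction of at least 2-fold was found in 1790 genes in the higher direction (11.6%) and 2494 in the lower (16.1%), together 4284 genes (27.7%). CSB_KO itself changed in 12201 genes between untreated and 20 h (78.9%), of which 5929 rose (38.3%) and 6272 fell (40.5%). WT changed in 8570 (55.4%), of which 4638 rose (30%) and 3932 fell (25.4%). Before irradiation the lines differed in 5381 genes (34.8%), at 2-fold in 608 (3.93%). Changes of at least 2-fold were called in 5745 genes in CSB_KO (37.1%) and in 1780 in WT (11.5%). The median absolute log2 change was 0.78 in CSB_KO and 0.30 in WT. The changes of the lines, which share no library, had a Pearson r of 0.55 and a Spearman rho of 0.52 across the 15470 genes, and genes are not independent replicates. Library sizes were scaled with TMM, a trimmed mean of log ratios between libraries. With library totals alone, the median interaction over all genes moved from -0.04 to -0.41 and the higher share of the calls from 46.0% to 27.2%, so directions are relative to the typical gene. In bulk RNA, fewer cells expressing a gene and less RNA per cell cannot be told apart. The TMM factors were 1.11 to 1.13 in WT at 20 h and 0.857 to 0.884 in CSB_KO at 20 h.

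**Figure D1:**
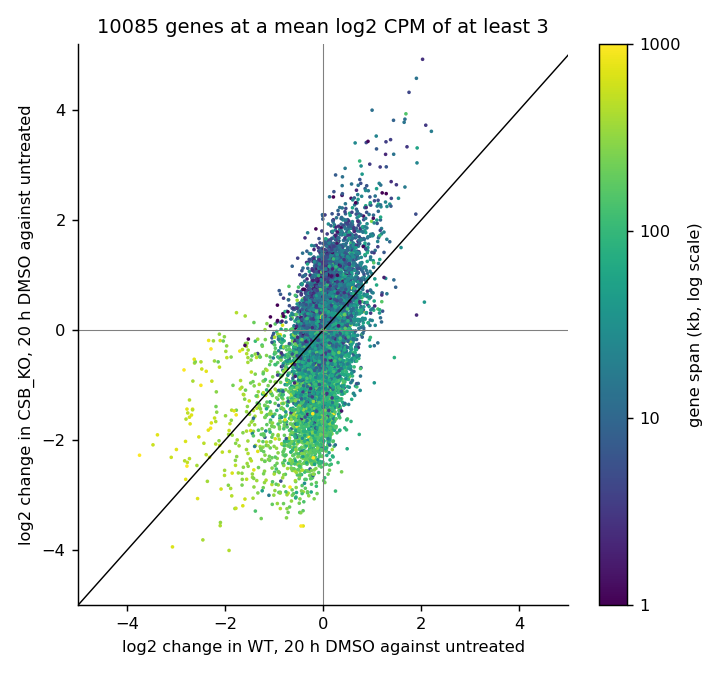
Log2 change at 20 h in DMSO against untreated in WT (horizontal axis) and in CSB_KO (vertical axis) for the 10085 genes with a mean log2 CPM of at least 3, coloured by gene span in kb on a log scale, with the black line marking equal change. Short genes lie mostly above the line and genes around 100 kb below it, while the longest genes spread to the left along a fall in WT.

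The interaction could be split by what each line did. Among the 4785 higher genes, 1892 (39.5%) rose in CSB_KO without a called change in WT, 1610 (33.6%) rose in both lines, and 507 (10.6%) rose in CSB_KO and fell in WT. A further 345 fell in both lines but less in CSB_KO, and 386 fell in WT without a called change in CSB_KO. Among the 5615 lower genes, 2118 (37.7%) fell in CSB_KO without a called change in WT, 1781 (31.7%) fell in both, and 1002 (17.8%) fell in CSB_KO and rose in WT. Median span went with the pattern. The genes that rose in both lines and were higher in CSB_KO had a median span of 14.9 kb, those that fell in both and were lower in CSB_KO 114 kb, and those that fell in both and were higher in CSB_KO 294 kb.

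The response was also read by gene span, the distance from the start to the end of the gene on GRCh38. The 1457 genes of up to 5 kb had a median interaction of 0.61 on the log2 scale, with a median change of 0.82 in CSB_KO and 0.21 in WT. The 1883 genes of 100 to 200 kb had a median interaction of -0.81, from -1.07 in CSB_KO and -0.20 in WT. The 236 genes over 500 kb lay on the other side, with a median interaction of 0.65, from -1.44 in CSB_KO and -2.12 in WT. Median interactions in between were 0.42 for 5 to 10 kb, 0.34 for 10 to 20 kb, -0.02 for 20 to 50 kb, -0.45 for 50 to 100 kb and -0.46 for 200 to 500 kb. With library totals alone the 10 to 20 kb median became -0.04, and the 20 to 50 kb median was between -0.39 and 0.09 over the scalings. Without WT untreated replicate 1 the medians were 0.67 up to 5 kb, -0.84 at 100 to 200 kb and 0.60 over 500 kb. The interaction was called higher in 48.4% and lower in 14.5% of genes up to 5 kb, against 10.99% and 64.2% at 100 to 200 kb and 46.6% and 19.1% over 500 kb. Across all 15470 genes, the Spearman rho of interaction with span was -0.34. It was -0.39 over the 14238 genes up to 200 kb and 0.22 over the 3115 genes over 100 kb. These ranges overlap at 100 to 200 kb, the class with the lowest median, so the 2 signs follow in part from the limits. Each rho is a description of genes that share the same libraries.

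The libraries of a group lay close together in these medians. Set against the untreated mean of the line, the genes of 100 to 200 kb had medians of -1.08, -1.08 and -1.06 in the 3 CSB_KO libraries at 20 h, and -0.19, -0.22 and -0.18 in the 3 WT libraries. The genes up to 5 kb had 0.77, 0.77 and 0.80 in CSB_KO and 0.13, 0.25 and 0.22 in WT. The genes over 500 kb had -1.26, -1.43 and -1.34 in CSB_KO and -2.05, -2.04 and -1.93 in WT. The lines did not overlap in any of these 3 classes. Before irradiation the median line difference lay between -0.02 and 0.11 in every class.

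**Figure D2:**
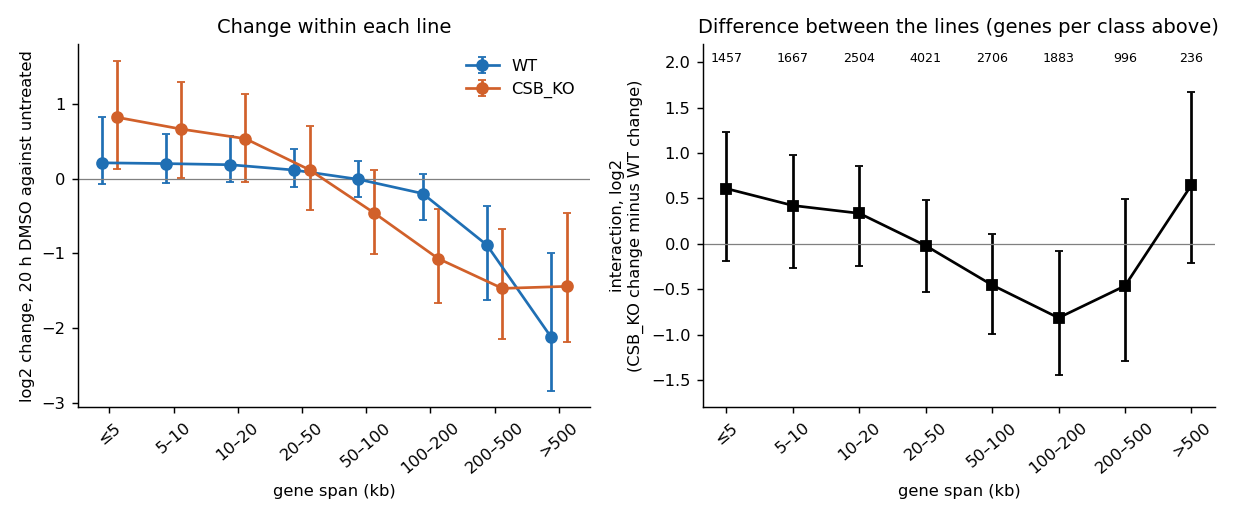
Median log2 change at 20 h in DMSO against untreated in WT and CSB_KO (left) and median interaction (right) by gene span in kb, with bars from the first to the third quartile over genes and the number of genes per class printed above. The WT medians lie below the CSB_KO medians in the classes up to 20 kb and over 500 kb and above them from 50 to 500 kb, and the interaction runs from 0.61 through -0.81 back to 0.65.

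The median above 500 kb was smaller among genes with a higher mean level over the compared libraries. That mean includes the 20 h libraries, so a gene that fell far could drop below the limit. The shift therefore cannot be read as an effect of expression level apart from the response. Among genes with a mean log2 CPM of at least 3, a limit chosen after the data had been seen, the 84 genes over 500 kb had a median interaction of 0.13, from -1.60 in CSB_KO and -1.70 in WT. At 100 to 200 kb the same limit gave a median interaction of -1.05 over 1298 genes. In finer classes the median interaction was -0.73 at 200 to 300 kb, -0.23 at 300 to 400 kb, 0.23 at 400 to 500 kb and 0.66 at 500 to 750 kb. Over the same classes the median WT change went from -0.65 to -1.30, -1.67 and -2.12, while the median CSB_KO change was -1.47, -1.49, -1.46 and -1.51.

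The share of each library that fell to long and short genes was also compared. Genes over 100 kb held 13.0% ± 0.356 (SD, n = 3) of the counts in untreated WT, 11.4% ± 0.183 in WT at 20 h, 13.5% ± 0.0645 in untreated CSB_KO and 5.61% ± 0.0355 in CSB_KO at 20 h. CSB_KO minus WT at 20 h was -5.76 percentage points, without overlap (exact permutation test, two-sided, p = 0.1, the smallest that 3 against 3 can give). Genes up to 10 kb went from 24.7% ± 0.198 to 35.3% ± 0.437 in CSB_KO and from 24.7% ± 0.682 to 24.4% ± 0.527 in WT. Genes over 500 kb held 0.421% ± 0.00961 in untreated WT, 0.192% ± 0.00227 in WT at 20 h, 0.467% ± 0.00241 in untreated CSB_KO and 0.161% ± 0.00181 in CSB_KO at 20 h. Their share at 20 h was thus lower in CSB_KO (-0.0313 points, exact permutation test, two-sided, p = 0.1), opposite in sign to their median interaction. A share says nothing of the total RNA per cell.

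Genes with a 2-fold interaction had different median transcript make-up, by the GENCODE 29 annotation of GRCh38. The 1790 higher genes had a median span of 13.6 kb, 2.66 kb of exon and at most 6 exons in a transcript, and the 2494 lower genes had 87.8 kb, 5.30 kb and 13 exons. All genes tested had medians of 32.7 kb, 3.59 kb and 9 exons. Within a span class, the median interaction was lower for genes with more exonic sequence. At 100 to 200 kb it was -0.16 for 179 genes with up to 2.67 kb of exon and -0.96 for 1212 genes with over 4.76 kb. Among genes up to 10 kb, the 396 with a single exon had a median of 0.25 and the 2692 with several exons 0.53.

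At the earlier times the class medians of the lines lay closer together. At 3 h, before DMSO, the genes up to 5 kb had a median change in mean log2 CPM of 0.42 in WT and 0.43 in CSB_KO, and at 4 h, in DMSO, 0.50 and 0.49. The genes of 100 to 200 kb stood at -0.41 in WT and -0.30 in CSB_KO at 3 h, and at -0.51 and -0.35 at 4 h. By 20 h this class was at -0.19 in WT and -1.07 in CSB_KO. The 3 h interaction, which shares the untreated libraries with the late one, was called in 1513 genes (9.78%), 229 of them higher (1.48%) and 1284 lower (8.3%). It reached 2-fold in 78 genes (0.504%).

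**Figure D3:**
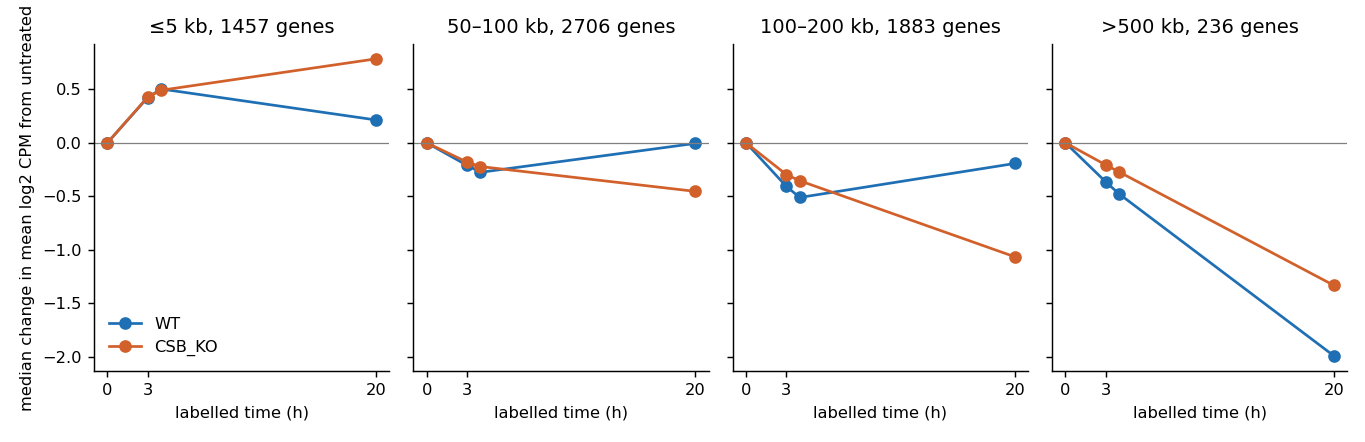
Median change in mean log2 CPM from untreated (vertical axis) at the labelled times of 3, 4 and 20 h (horizontal axis) in WT and CSB_KO, for genes of up to 5, 50 to 100, 100 to 200 and over 500 kb. The lines run together to 4 h in the shortest class and part by 20 h, in opposite directions for the 100 to 200 kb class and the class over 500 kb.

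The late change of CSB_KO also differed from that of the 2 STK19 knockout lines of the series. STK19 is another factor of transcription-coupled repair. Against the mean of those lines, 9797 genes were called (63.3%), 4839 higher (31.3%) and 4958 lower (32%), and 2196 at 2-fold (14.2%). This comparison shares the CSB_KO libraries with the one against WT. Its median was 0.49 for genes up to 5 kb, -0.44 for 100 to 200 kb and 0.67 over 500 kb. The 2 STK19 lines had median changes of -0.70 and -0.76 at 100 to 200 kb and of -2.04 and -2.24 over 500 kb, against -1.44 in CSB_KO.

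The 10 genes with the largest positive interaction under the rule for named genes spanned 1.15 kb to 26.1 kb, and each rose in both lines. The level limit of that rule is a mean over libraries that include CSB_KO at 20 h, where each of the 10 was highest. PHLDA2, PLEKHO2 and IER5L passed the limit only through that group. HBEGF (chr5:140332843-140346603, 13.8 kb), a membrane-bound growth factor that activates the EGF receptor when shed, had 7.08, 5.84 and 6.97 CPM in untreated WT and 24.5, 24.7 and 25.3 in WT at 20 h. It had 6.55, 6.598 and 6.88 CPM in untreated CSB_KO and 152, 164 and 160.2 at 20 h. The lines overlapped before irradiation and lay far apart at 20 h, and the interaction was 2.68 ± 0.07 (adjusted p = 1.48e-37). At 3 h HBEGF stood at 52.1 ± 2.47 CPM (SD, n = 3) in WT and 42.5 ± 0.711 in CSB_KO, so WT at 20 h lay below its 3 h level and CSB_KO above it. The STK19 lines had 71.7 ± 2.65 and 76.3 ± 1.94 CPM at 20 h, between WT and CSB_KO.

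NPTX2 (chr7:98617285-98629869, 12.6 kb), a secreted pentraxin of synapses, had the largest of these, 3.000 ± 0.09 (adjusted p = 6.86e-35). It had 26.1, 30.2 and 31.5 CPM in untreated WT, 54.96, 60.9 and 59.4 in WT at 20 h, 35.3, 37.5 and 33.3 in untreated CSB_KO and 565, 561 and 569 in CSB_KO at 20 h. The lines already differed before irradiation (0.27), and the last group lay far above the other 3. IER5L (chr9:129175552-129178261, 2.71 kb), a relative of the immediate early gene IER5, had 2.58, 5.24 and 4.58 CPM in untreated WT, 15.5, 18.4 and 17.02 in WT at 20 h, 4.34, 4.39 and 5.305 in untreated CSB_KO and 142, 136 and 141 in CSB_KO at 20 h (interaction 2.89 ± 0.25, adjusted p = 1.48e-15). The untreated groups overlapped, and the mean at 3 h was 43.3 ± 13.4 CPM in WT and 45.4 ± 6.53 in CSB_KO.

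The other 7 genes of the 10 highest were PLEKHO2 (2.75), SERTAD1 (2.57), SHISA2 (2.57), ZNF296 (2.53), PHLDA2 (2.52), KLHL11 (2.49) and TENT5C (2.44), with the interaction on the log2 scale in brackets. SERTAD1 is a cell cycle and transcription cofactor, PHLDA2 an imprinted growth regulator, SHISA2 an antagonist of Wnt and FGF receptors in the endoplasmic reticulum, and TENT5C a cytoplasmic poly(A) polymerase. PHLDA2 was the shortest of the 10 and PLEKHO2 the longest. PHLDA2 had means of 4.38 CPM in untreated WT, 8.33 in WT at 20 h, 3.51 in untreated CSB_KO and 38.1 in CSB_KO at 20 h. PLEKHO2 had 4.96, 7.79, 4.66 and 48.6 CPM in the same order. PLEKHO2, KLHL11 and TENT5C had a negative interaction at 3 h (-0.45, -0.48 and -0.75), called in each.

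**Figure D4:**
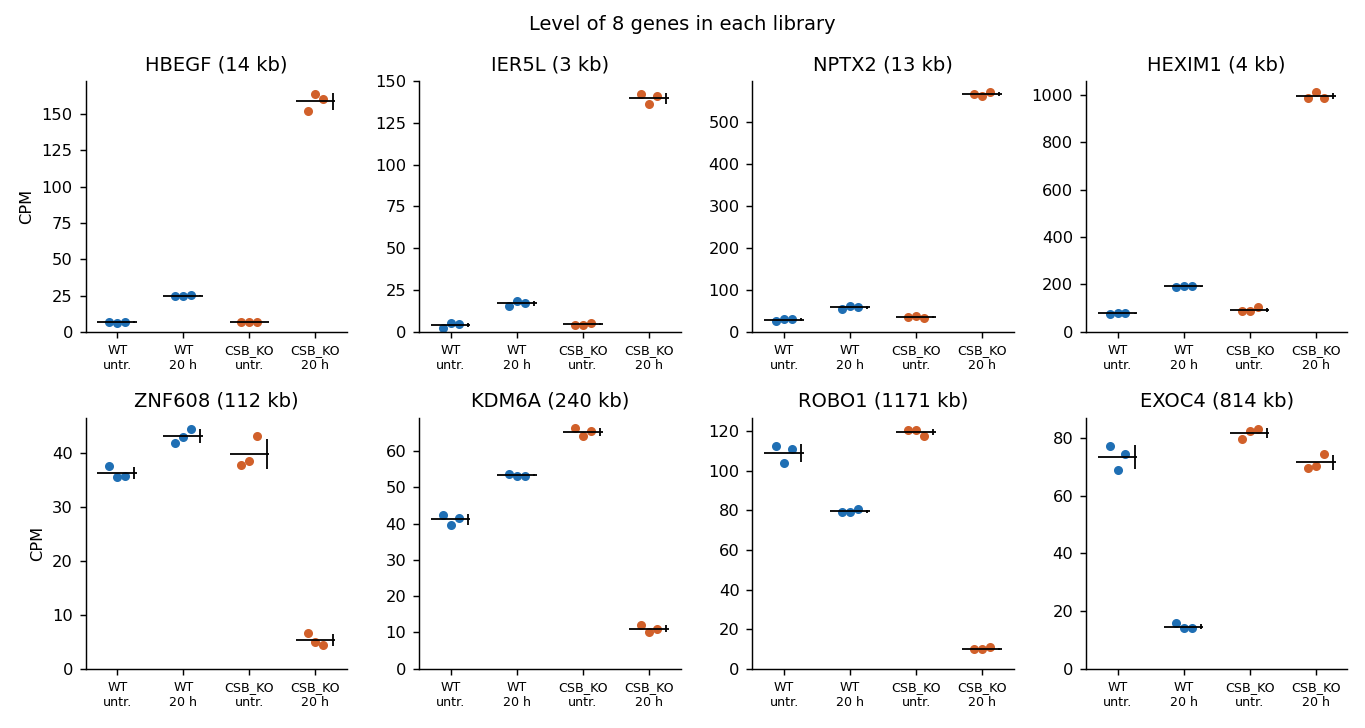
CPM in each of the 12 libraries for 8 genes, with points for libraries, horizontal lines for the group mean and vertical bars of 1 SD. HBEGF, IER5L, NPTX2 and HEXIM1 are highest in CSB_KO at 20 h, ZNF608, KDM6A and ROBO1 are lowest there, and EXOC4 is lowest in WT at 20 h.

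The 10 genes with the largest negative interaction under the same rule, which asks for a mean log2 CPM of at least 3, spanned 112 kb to 1171 kb, and each fell in CSB_KO. ZNF608 (chr5:124636913-124748807, 112 kb), a zinc finger gene, had the largest negative interaction among them, -3.18 ± 0.13 (adjusted p = 1.24e-28). It had 37.7, 35.6 and 35.8 CPM in untreated WT, 41.9, 43.01 and 44.5 in WT at 20 h, 37.9, 38.5 and 43.1 in untreated CSB_KO and 6.51, 4.92 and 4.37 in CSB_KO at 20 h. WT at 20 h was the highest group and CSB_KO at 20 h the lowest, with no overlap between them. At 3 h both lines were low, 6.77 ± 0.809 CPM in WT and 6.95 ± 0.8904 in CSB_KO, and the STK19 lines had 20.1 ± 1.58 and 17.3 ± 0.9898 CPM at 20 h.

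KDM6A (chrX:44873188-45112779, 239.6 kb), a demethylase of histone H3 lysine 27, had 42.4, 39.5 and 41.5 CPM in untreated WT and 53.7, 53.2 and 53.1 at 20 h. In CSB_KO it had 66.2, 64.02 and 65.5 CPM untreated and 12.02, 10.03 and 10.8 at 20 h. It rose in WT and fell in CSB_KO, although CSB_KO had started higher (interaction -2.96 ± 0.09, adjusted p = 6.43e-35). Its 3 h levels were 14.7 ± 1.01 CPM in WT and 24.7 ± 1.33 in CSB_KO.

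FYN (chr6:111660332-111873452, 213 kb), a Src family kinase, had 82.1, 75.1 and 80.9 CPM in untreated WT, 80.7, 79.7 and 83.1 in WT at 20 h, 92.97, 95.7 and 93.7 in untreated CSB_KO and 14.1, 13.4 and 13.7 in CSB_KO at 20 h. The untreated and 20 h values of WT overlapped, with a change of 0.03 that was not called, and CSB_KO at 20 h lay far below both (interaction -2.81 ± 0.06, adjusted p = 7.83e-41). At 3 h FYN stood at 39.5 ± 0.3902 CPM in WT and 48.7 ± 2.87 in CSB_KO. BMPR1A (chr10:86756596-86932825, 176 kb), a receptor for bone morphogenetic proteins, had 57.7, 50.1 and 49.7 CPM in untreated WT, 43.1, 42.7 and 40.3 in WT at 20 h, 47.7, 48.5 and 50.4 in untreated CSB_KO and 6.54, 6.05 and 6.24 in CSB_KO at 20 h (interaction -2.64 ± 0.11). Its 3 h levels were 9.54 ± 1.41 CPM in WT and 8.56 ± 0.663 in CSB_KO, so only the WT values at 20 h lay above those at 3 h.

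BMPR1A was named through its gene list and was not among the 10 lowest. Among the rest of the 10 lowest were the kinase and signalling genes RAPGEF2 (-2.89) and PIK3CB (-2.88), the elongation factor gene MLLT3 (-2.87), and the RNA-binding genes MBNL1 (-2.85) and IGF2BP3 (-2.84). Their spans were 160.3 kb for IGF2BP3 to 281 kb for MLLT3. They fell by 2.98 to 3.33 on the log2 scale in CSB_KO, and the WT changes were -0.48 to -0.13, that of MBNL1 (-0.13) not called. The 3 h interactions of these 5 genes were -0.31 to -0.01 and not called.

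Genes over 500 kb were found on both sides. ROBO1 (chr3:78597239-79767998, 1171 kb), an axon guidance receptor, had 113, 104 and 111 CPM in untreated WT, 79.2, 79.1 and 80.5 in WT at 20 h, 121, 121 and 118 in untreated CSB_KO and 9.81, 9.84 and 10.7 in CSB_KO at 20 h (interaction -3.11 ± 0.10, adjusted p = 2.76e-33). ADGRL2 (chr1:81306147-81993932, 688 kb), an adhesion receptor of the latrophilin family, had 124, 112 and 119 CPM in untreated WT, 90.5, 84.8 and 91.2 in WT at 20 h, 126, 127 and 123 in untreated CSB_KO and 10.1, 10.9 and 10.6 in CSB_KO at 20 h (interaction -3.16 ± 0.09). Both fell in both lines, and further in CSB_KO. KAZN (-2.18, 1225 kb) and the readthrough gene IQCJ-SCHIP1 (-2.12, 935 kb) followed among the genes over 500 kb. IQCJ-SCHIP1 overlaps SCHIP1, so its reads may be shared with that gene.

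EXOC4 (chr7:133253073-134066589, 814 kb), a subunit of the exocyst that tethers secretory vesicles, went the other way. It had 77.2, 68.8 and 74.3 CPM in untreated WT and 15.7, 14.01 and 13.98 at 20 h, and 79.7, 82.4 and 83.2 in untreated CSB_KO and 69.8, 70.5 and 74.5 at 20 h. WT at 20 h stood far below every other group, and the interaction was 2.15 ± 0.07 (adjusted p = 6.64e-34). WT had 85.7 ± 5.602 CPM at 3 h and 81.1 ± 3.75 at 4 h, levels not below those of untreated cells. The STK19 lines had 13.1 ± 0.375 and 15.4 ± 0.568 CPM at 20 h, near the WT level.

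TBC1D5 (chr3:17157162-18444817, 1288 kb), a GTPase-activating protein of the retromer pathway, had 42.6, 41.7 and 44.7 CPM in untreated WT, 8.797, 8.801 and 8.75 in WT at 20 h, 35.2, 33.8 and 35.02 in untreated CSB_KO and 27.2, 26.2 and 28.4 in CSB_KO at 20 h (interaction 1.95 ± 0.10, adjusted p = 3.42e-25). The STK19 lines had 4.28 ± 0.466 and 3.41 ± 0.382 CPM at 20 h, below WT. SDK1 (2.11, 968 kb), a synaptic adhesion gene, and TRAPPC9 (2.101, 731 kb), a vesicle transport gene, were the other 2 of the 4 highest genes over 500 kb. All 4 fell in both lines and fell less in CSB_KO.

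Other genes changed in opposite directions in the lines. Under the rule for named genes (mean log2 CPM of at least 3, a called interaction and no overlap of the 3 CSB_KO and 3 WT changes), 453 rose in CSB_KO and fell in WT, and 815 did the reverse. Over all genes tested, the 3 changes of one line did not overlap the 3 of the other in 12341, or 79.8%, beside the 67.2% called. GPC3 (chrX:133535745-133987100, 451 kb), a cell surface heparan sulfate proteoglycan, had 18.1, 18.8 and 17.5 CPM in untreated WT, 5.19, 5.16 and 5.503 in WT at 20 h, 19.9, 20.03 and 19.7 in untreated CSB_KO and 22.2, 26.5 and 25.2 in CSB_KO at 20 h. It was lowest in WT at 20 h and a little above its untreated level in CSB_KO (interaction 2.09 ± 0.11, adjusted p = 3.06e-24).

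MYO1D (chr17:32492522-32877177, 385 kb), an unconventional myosin, had 43.9, 42.6 and 45.7 CPM in untreated WT, 14.7, 14.5 and 14.6 in WT at 20 h, 101, 101 and 96.2 in untreated CSB_KO and 121, 113 and 123 in CSB_KO at 20 h. CSB_KO had more MYO1D at the start, and the line difference widened at 20 h (interaction 1.85 ± 0.08, adjusted p = 5.83e-28). AFMID (20.3 kb), an enzyme of tryptophan breakdown, went from 16.1, 17.9 and 15.1 to 53.7, 58.1 and 55.9 CPM in CSB_KO and from 17.9, 17.7 and 16.4 to 14.9, 13.5 and 13.4 in WT (interaction 2.09 ± 0.09). In the other direction, ATP2B1 (121 kb), a calcium pump of the plasma membrane, went from 163, 164 and 164 to 29.4, 31.8 and 31.03 CPM in CSB_KO and from 183, 157 and 159 to 212, 197 and 205 in WT (interaction -2.71 ± 0.11). MND1 (70.5 kb), a meiotic recombination cofactor, followed with -2.65 ± 0.20.

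Short genes were also found among the lower ones. RFXAP (chr13:36819222-36829104, 9.88 kb), a subunit of the RFX activator of MHC class II genes, had 22.3, 19.3 and 22.4 CPM in untreated WT, 18.3, 18.7 and 18.5 in WT at 20 h, 23.3, 25.2 and 26.4 in untreated CSB_KO and 4.12, 3.81 and 4.05 in CSB_KO at 20 h (interaction -2.44 ± 0.11, adjusted p = 5.17e-28). At 3 h it was low in both lines, 8.88 ± 1.06 CPM in WT and 10.3 ± 0.765 in CSB_KO. The matrix gene EMILIN3 (-2.26, 6.86 kb) and PPP1R26 (-2.13, 9.81 kb), for a phosphatase regulator, were the next lowest of at most 10 kb under the rule for named genes. Genes below its level limit had larger fitted values, such as the histone gene H1-3 (0.776 kb) at -3.78, whose groups overlapped. Neither EMILIN3 nor PPP1R26 had a called change in WT (-0.27 and -0.03).

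**Figure D5:**
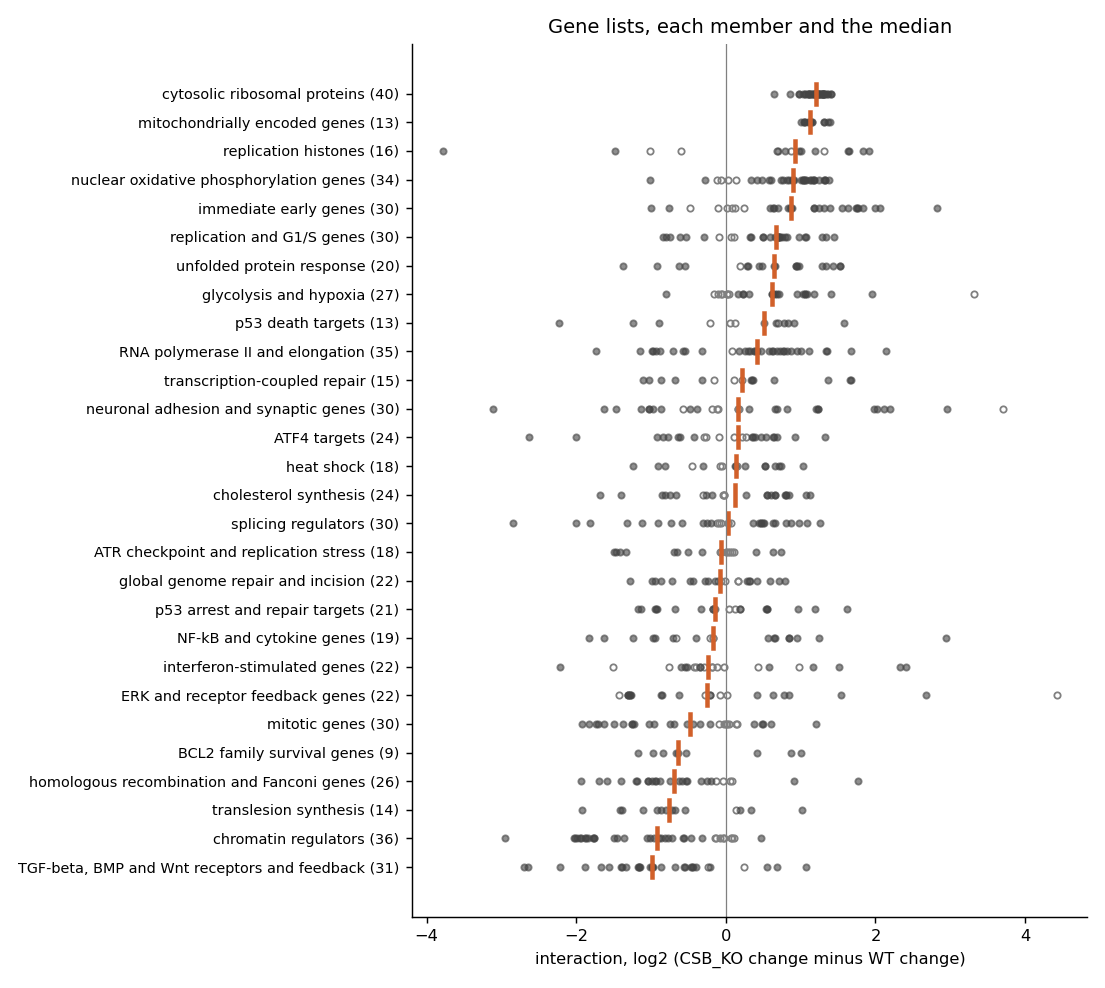
Interaction on the log2 scale (horizontal axis) for the tested members of 28 gene lists, with filled points for called members, open points for the others, an orange bar at the median and the number tested in brackets. Ribosomal protein and mitochondrially encoded genes lie highest and the chromatin and TGF-beta, BMP and Wnt lists lowest, while the medians of the transcription-coupled repair, global genome repair, ATR, ATF4, heat shock, cholesterol, splicing and neuronal lists change sign between scalings.

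Immediate early genes, which growth factors and stress induce within minutes and which are mostly short, were mainly higher in CSB_KO. Of 30 tested, 22 were called higher and 2 lower (KLF2, -0.999, and MYC, -0.76), with a median of 0.88 beside -0.04 over all genes. All genes tested gave 30.9% higher and 36.3% lower. The median span of the list was 5.73 kb, and all tested genes of 5 to 10 kb had a median interaction of 0.42. Above the median of their own span class lay 22 of the 30. FOS (3.405 kb), a subunit of AP-1, had 5.005, 5.06 and 4.93 CPM in untreated WT, 9.79, 9.89 and 9.31 in WT at 20 h, 3.45, 4.21 and 5.22 in untreated CSB_KO and 34.1, 33.7 and 34.7 in CSB_KO at 20 h (interaction 2.07 ± 0.11). EGR1 (3.83 kb), a zinc finger activator, had 44.8, 53.6 and 52.1 CPM in untreated WT, 32.7, 36.1 and 35.9 in WT at 20 h, 29.01, 27.9 and 29.3 in untreated CSB_KO and 67.3, 74.7 and 70.5 in CSB_KO at 20 h (interaction 1.83 ± 0.09). FOS rose in both lines, whereas EGR1 fell in WT and rose in CSB_KO from a lower start. MYC fell in both lines, more so in CSB_KO (-1.95 against -1.19). ERK feedback and receptor genes split, with 6 of 22 higher and 10 lower (median -0.25). HBEGF and the short inhibitor gene SPRY4 (1.54) were higher, and the receptor gene ERBB2 (-1.31) and the inhibitor gene SPRED1 (-1.31) were lower.

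Most arrest and repair targets of p53 rose in each line. Of 21 tested, 19 rose in WT and 16 in CSB_KO, beside 30% and 38.3% of all genes tested. The interaction was higher in 7 and lower in 9 (median -0.14), beside 30.9% and 36.3% of all genes tested. MDM2, SESN1, DDB2 and RRM2B were the 4 that fell in CSB_KO, and none fell in WT. GADD45A (3.13 kb), a growth arrest gene, went from 29.7, 31.1 and 30.2 to 97.5, 99.2 and 101 CPM in WT and from 27.3, 27.4 and 29.1 to 285, 277 and 281 in CSB_KO (interaction 1.62 ± 0.08). CDKN1A (10.9 kb), the inhibitor p21, went from 31.2, 36.9 and 34.9 to 49.8, 49.96 and 50.7 CPM in WT and from 19.8, 23.6 and 20.5 to 70.2, 71.6 and 73.2 in CSB_KO (1.196 ± 0.10). Both rose in the 2 lines, and more in CSB_KO. DDB2, the lesion sensor of global genome repair, rose in WT (0.68) and fell in CSB_KO (-0.27), and RRM2B, a ribonucleotide reductase subunit, did the same (0.22 and -0.71).

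Of 13 death targets of p53, 6 were higher and 3 lower (median 0.51). The shares over all genes tested were 30.9% higher and 36.3% lower. TRIAP1 (1.58, 2.42 kb) and the nuclease gene AEN (0.90, 10.9 kb) were higher. APAF1 (90.1 kb), the scaffold of the apoptosome, had 44.04, 39.8 and 41.7 CPM in untreated WT, 64.3, 60.2 and 61.4 in WT at 20 h, 50.4, 50.7 and 50.1 in untreated CSB_KO and 14.9, 16.7 and 15.9 in CSB_KO at 20 h (interaction -2.23 ± 0.11). It rose in WT and fell in CSB_KO, as did the death receptor gene FAS (0.73 and -0.52, 75.8 kb). EDA2R (-0.89) was the third lower target. Of 9 BCL2 family and inhibitor of apoptosis genes, 6 were lower, among them CFLAR (-1.18) and BCL2 (-0.83), and 3 were higher, BIRC5 (1.01), MCL1 (0.87) and BIRC2 (0.42).

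Repair genes were read together with their span. Over all genes tested, 3878 of the 9649 of up to 50 kb were higher and 2342 lower, and of the 5821 longer ones 907 were higher and 3273 lower. The 50 kb split was added after the data had been seen. Of 15 transcription-coupled repair genes, 7 were higher and 5 lower, with a median of 0.21 that became -0.16 with library totals alone. All 7 higher genes were among the 8 of up to 50 kb, and all 5 lower ones among the 7 over 50 kb. POLR2A (30.3 kb), the large subunit of RNA polymerase II, had 263, 299 and 295 CPM in untreated WT, 491, 530.4 and 537 in WT at 20 h, 375, 375 and 377 in untreated CSB_KO and 2149, 2196 and 2184 in CSB_KO at 20 h (interaction 1.67 ± 0.14). XAB2 (1.66), an XPA-binding splicing factor, and the elongation factor gene ELOF1 (1.36) were higher as well. The deubiquitinase gene USP7 (-1.101) and the ligase genes CUL4A (-1.03) and CUL4B (-0.87) were lower, as were UVSSA (-0.68), which brings USP7 to the stalled polymerase, and the elongation factor gene TCEA1 (-0.31).

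Homologous recombination and Fanconi anaemia genes were mostly lower, 20 of 26 against 2 higher (median -0.69). Of all genes tested, 36.3% were lower and 30.9% higher. BRCA1 (126 kb) had 129, 114 and 118 CPM in untreated WT, 155, 151 and 151 in WT at 20 h, 127, 125 and 126 in untreated CSB_KO and 42.7, 39.6 and 42.7 in CSB_KO at 20 h (interaction -1.94 ± 0.08). It rose in WT and fell in CSB_KO. FANCC (-1.696, 328 kb) fell in both. XRCC3 (0.91) and RAD51B (1.77, 910.4 kb) were the 2 higher members. Of the 13 members over 50 kb 12 were lower, and of the 13 shorter ones 8. Among all genes tested, 3273 of the 5821 over 50 kb were lower, and 2342 of the 9649 shorter ones. Of 14 translesion synthesis genes, 10 were lower (median -0.76), with the polymerase zeta subunit REV3L at -1.92 and SMARCAL1 at -1.42, and 3 were higher, UBE2A (1.01), POLH (0.19) and MAD2L2 (0.34, which became -0.03 with library totals alone). Of the 10 translesion genes over 50 kb 8 were lower, and of the 4 shorter ones 2.

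The lists for G1/S and for mitosis had medians of opposite sign. Of 30 replication and G1/S genes, 21 were higher and 6 lower (median 0.67), beside 30.9% and 36.3% of all genes tested. The 24 of up to 50 kb had 19 higher and 3 lower (median 0.70). The 6 longer ones had 2 higher and 3 lower (median -0.12). E2F1 (10.9 kb), the activator of S phase genes, had 96.1, 129 and 125 CPM in untreated WT, 126, 134 and 126 in WT at 20 h, 107, 109.8 and 107 in untreated CSB_KO and 323, 319 and 330.0 in CSB_KO at 20 h (interaction 1.45 ± 0.11). Cyclin E1 (CCNE1, 1.34) was higher too, and GINS1 (-0.85) and CDC45 (-0.79) were lower. Of 30 mitotic genes, 18 were lower and 5 higher (median -0.48). CENPE (93.1 kb), a kinetochore motor, had 139, 113 and 118 CPM in untreated WT, 113, 103 and 112 in WT at 20 h, 119, 117 and 125 in untreated CSB_KO and 27.7, 28.8 and 28.1 in CSB_KO at 20 h (interaction -1.93 ± 0.12). ANLN was at -1.84, and the higher ones were PTTG1 (1.205), CDC20 (0.61), CENPA (0.50), CDC25B (0.49) and KIF20A (0.38). All 10 mitotic genes over 50 kb were lower (median -1.57), and of the 20 shorter ones 8 were lower and 5 higher (median -0.01). Among all genes tested, 3273 of the 5821 over 50 kb were lower and 907 higher (median -0.53). Of the 9649 shorter ones, 2342 were lower and 3878 higher (median 0.23).

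Genes of the ribosome and of energy metabolism were mostly higher. The shares over all genes tested were 30.9% higher and 36.3% lower. All 40 cytosolic ribosomal protein genes tested were higher, with interactions of 0.65 to 1.41 and a median of 1.21, and all 40 stayed higher under every scaling tried. Their median change was 1.24 in CSB_KO and 0.02 in WT. RPL35 (4.102 kb) had 485, 472 and 466 CPM in untreated WT, 467, 475 and 439 in WT at 20 h, 388, 393 and 389 in untreated CSB_KO and 995, 1003 and 1009 in CSB_KO at 20 h (interaction 1.404 ± 0.10). The 1667 genes of 5 to 10 kb, the class that held the list's median span of 5.09 kb, had a median interaction of 0.42, and each of the 40 lay above the median of its own span class. Ribosomal protein genes have many near-identical pseudogenes, so reads may be shared with copies. Of 34 nuclear genes of oxidative phosphorylation, 28 were higher and 2 lower (median 0.90), with NDUFA6 at 1.38, UQCRQ at 1.32, NDUFV2 at -1.01 and NDUFS1 at -0.28. Of 27 glycolysis and hypoxia genes, 18 were higher and 1 lower (median 0.62). All 34 oxidative phosphorylation genes and 19 of these 27 spanned up to 50 kb. Of all 9649 genes tested in that range, 3878 were higher and 2342 lower. Above the median of their own span class lay 29 of the 34 and 20 of the 27. ALDOA (1.17) and GAPDH (1.09), enzymes of glycolysis, were higher, and the hexokinase gene HK1 (-0.79, 132 kb) was lower. GAPDH had a WT change of 0.00.

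The 13 protein-coding genes of the mitochondrial genome, which a separate mitochondrial polymerase transcribes, were all higher, with interactions of 1.00 to 1.39 (median 1.13). In WT 12 of 13 fell, all but MT-CO1 (median -0.84), while the median change in CSB_KO was 0.25 and 5 rose (MT-ND1, MT-ND3, MT-ND4L, MT-CO1 and MT-CO2). MT-ND3 had 490.2, 433 and 375 CPM in untreated WT, 192, 206 and 279 in WT at 20 h, 367, 389.7 and 381 in untreated CSB_KO and 438, 614 and 502 in CSB_KO at 20 h (interaction 1.39 ± 0.20). Mitochondrial genes held 3.30% ± 0.182 of the counts in untreated WT, 2.35% ± 0.368 in WT at 20 h, 3.34% ± 0.0766 in untreated CSB_KO and 3.93% ± 0.449 in CSB_KO at 20 h. WT at 20 h was the lowest group and CSB_KO at 20 h overlapped untreated WT.

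Genes of the transcription machinery lay on both sides. Of 35 genes of RNA polymerase II and its elongation factors, 24 were higher and 10 lower (median 0.42). The shares over all genes tested were 30.9% and 36.3%. Of the 23 up to 50 kb 20 were higher and 2 lower, and of the 12 longer ones 4 were higher and 8 lower. HEXIM1 (chr17:45148475-45152099, 3.62 kb), the inhibitor that holds the kinase P-TEFb in the 7SK complex, had 76.3, 80.1 and 80.8 CPM in untreated WT, 191, 192 and 193 in WT at 20 h, 86.6, 89.1 and 104 in untreated CSB_KO and 987, 1012 and 989 in CSB_KO at 20 h (interaction 2.14 ± 0.06, adjusted p = 5.18e-36). WT at 3 h had 577 ± 57.4 CPM and CSB_KO 506 ± 6.84, so the WT level at 20 h was below its 3 h level and the CSB_KO level above. The kinase gene CDK13 (-1.73, 149 kb) and ELL2 (-1.15, 76.8 kb) were lower.

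Chromatin regulators, most of them long genes, were lower in 27 of 36 and higher in 1 (KMT2B, 0.47), with a median of -0.92. After KDM6A the lowest was the remodeller gene CHD1 (-2.04, 75.02 kb). Of the 29 over 50 kb 25 were lower, against 2 of the 7 shorter ones. Receptors and feedback genes of TGF-beta, BMP and Wnt signalling were lower in 26 of 31 and higher in 3 (median -0.99). Of the 21 over 50 kb 20 were lower, and of the 10 shorter ones 6. Among all genes tested, 3273 of the 5821 over 50 kb were lower, and 2342 of the 9649 shorter ones. Without regard to span, 30.9% of all genes tested were higher and 36.3% lower. RNF43, a ligase that removes Wnt receptors, was at -2.702 ± 0.13. The short target gene ID2 (1.08, 5.62 kb) and the receptor genes FZD7 (0.69) and FZD1 (0.55) were the higher ones. Neuronal adhesion and synaptic genes, with a median span of 374 kb, had 12 of 30 higher and 10 lower, and their median of 0.17 became -0.21 with library totals alone. CNTN1 (380.0 kb) was higher (2.03 ± 0.13), having gone from 31.98, 27.4 and 28.8 to 5.64, 4.28 and 4.51 CPM in WT and from 25.3, 24.7 and 25.3 to 16.4, 16.4 and 16.8 in CSB_KO, as was PTPRG (0.82, 736 kb), and ROBO1 and SLIT2 (-1.46) were lower.

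Genes of the unfolded protein response of the endoplasmic reticulum were mostly higher, and ATF4 targets, a pathway of amino acid supply, were mixed. Of all genes tested, 30.9% were higher and 36.3% lower, while 30% rose in WT and 38.3% in CSB_KO. Of 20 genes of the unfolded protein response, 15 were higher and 4 lower (median 0.65), and 15 lay above the median of their own span class. The chaperone gene HSPA5 (6.53 kb) had 560.0, 531 and 542 CPM in untreated WT, 301, 296 and 295 in WT at 20 h, 418, 425 and 427 in untreated CSB_KO and 647, 673 and 669 in CSB_KO at 20 h (interaction 1.52 ± 0.06). It fell in WT and rose in CSB_KO. MANF (1.53) was higher, and the sensor gene ATF6 (-1.37, 211 kb) and the quality control genes EDEM1 (-0.91), SEL1L (-0.54) and DNAJC3 (-0.63) were lower. Of 24 ATF4 targets, 21 rose in WT and 19 in CSB_KO, and the interaction was higher in 10 and lower in 8, with a median of 0.16 that became -0.21 with library totals alone. SLC7A5 (1.32) and SLC3A2 (0.93), the subunits of an amino acid transporter, were higher. SLC7A11 (78.3 kb), the cystine transporter that also pairs with SLC3A2, had 38.3, 32.7 and 34.5 CPM in untreated WT, 59.4, 56.3 and 59.7 in WT at 20 h, 26.1, 24.2 and 23.3 in untreated CSB_KO and 5.88, 6.63 and 7.15 in CSB_KO at 20 h. It rose in WT and fell in CSB_KO (interaction -2.64 ± 0.13).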

How the data were processed

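Whole-number estimated counts per gene were deposited by the authors for all 72 libraries. Per the submitters' processing notes, STAR, RSEM and GRCh38 were used, and no source used here says whether counting used strand. PolyA libraries were made with a directional kit, per the labels' protocols. The span and position of a gene were read from the deposited table. Here, edgeR 4.0.16 (R 4.3.3) was fitted to all 72 libraries in 24 groups (TMM scaling, quasi-likelihood F test), after filterByExpr (minimum count 10, minimum total 15) had removed 3854 of 19324 genes. Calls were made at a Benjamini-Hochberg adjusted p under 0.05, and CPM values use TMM library sizes. The test was also run on simulated counts with a single fixed spread and a known interaction in a small part of the genes. Those settings differ from these data, so that run does not check the scaling or spread here. Replicates differed beyond sampling noise in every group. Alternatives were other scalings, no filter, DESeq2 1.42.0, the 12 libraries alone, a replicate block and leaving out each library. The members and gene lists were chosen with earlier results of these data known. Named genes had a mean log2 CPM of at least 3, a called interaction and no overlap of the 3 CSB_KO and 3 WT changes: the 10 largest each way, the 4 largest each way with opposite signs in the lines, the 4 largest each way over 500 kb, and the 3 largest each way up to 10 kb. That mean log2 CPM was taken over the 12 libraries, the 20 h groups included. ERCC6 and up to 2 members each way per list were added. Further members of short call lists (such as ELOF1, UVSSA, EDA2R, BIRC2, KLF2, RAD51B, ISG20 and CD14) were named after their values were seen. A few genes that the rule names are not reported here.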

Additional observations from a re-analysis of the deposited data

Results flagged for a closer look

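The late response differed between the lines by a test of the difference itself in 4785 genes as higher and 5615 as lower in CSB_KO. Among the genes named for opposite changes, the same test gave interactions of 2.09 for GPC3, 2.09 for AFMID, 2.05 for RHBDL1 and 1.85 for MYO1D, which rose in CSB_KO and fell in WT. It gave -3.18 for ZNF608, -2.96 for KDM6A, -2.71 for ATP2B1 and -2.65 for MND1, which fell in CSB_KO and rose in WT. RHBDL1 (2.598 kb), a rhomboid protease gene, had 8.86, 10.1 and 9.04 CPM in WT and 49.4, 45.3 and 49.4 in CSB_KO at 20 h, from 8.81, 14.3 and 13.02 and 14.03, 15.7 and 15.3 untreated.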

How the results depend on the processing

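The counts of higher and lower late interactions stayed within 1.5 times of 4785 and 5615 under DESeq2, RLE and upper quartile scaling, no filter on low counts, the 12 libraries alone, a replicate block and each left-out library. With library totals alone the counts were 2868 higher (852 at 2-fold) and 4035 lower at 2-fold, and 3018 were higher against the STK19 lines. Leaving out 1 library at a time gave 4516 to 4757 higher and 5436 to 5549 lower, and a 20 to 50 kb median of -0.037 to 0.0018. The deviations of same-numbered libraries from their group means correlated at -0.20 to 0.63, positive for some pairs and negative for others, so the numbers were not taken as pairs, and not every library correlated best with its own number. The replicate block gave 4873 higher and 5718 lower.

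Median interactions by span shifted with the scaling as a whole. With library totals alone they were 0.24, 0.051, -0.036, -0.39, -0.82, -1.19, -0.83 and 0.28, from the shortest class to the longest. From 10 to 20 kb up to 200 to 500 kb they were 0.41, 0.058, -0.38, -0.74 and -0.38 with DESeq2, and 0.41, 0.056, -0.38, -0.74 and -0.39 with RLE. Upper quartile scaling gave 0.53, 0.44, 0.086, -0.35, -0.71 and -0.36 from 5 to 10 kb up to 200 to 500 kb. The 12 libraries alone gave 0.39 at 10 to 20 kb and 0.032 at 20 to 50 kb. No filter gave 0.37, 0.33, 0.28 and 0 in the 4 shortest classes and 0.49 over 500 kb, with 19324 genes tested. Genes at a mean log2 CPM of at least 3, chosen after seeing the data, gave -0.052, -0.58, -1.05, -0.90 and 0.13 in the 5 longest classes. That mean includes the 20 h libraries, so the limit is not independent of the response. The share of counts at 20 h, CSB_KO minus WT, was -11.6 points over 50 kb, -1.20 over 200 kb and -0.0313 over 500 kb. The cause of these shifts was not tested.

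Of 2603 values of named genes under 19 alternatives, 2599 kept direction and call. With library totals alone ERCC6 became -0.27 and MAD2L2 -0.034, and KMT2B and KRT8 lost their call. Of 1216 counts of list members, 38 moved over 1.5-fold. Each library held at least 39.8 M counts, and differences in genes of low count may not be detectable at this depth. A single CSB knockout line, the lack of an unirradiated 20 h group and the unsettled origin of the 20 h limit the comparison.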

Other observations

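Further gene groups were also measured, and their members lay on both sides, in most groups without a common direction. Of all genes tested, 30.9% were higher and 36.3% lower, and several of these lists were near those shares. Of 22 global genome repair genes, 6 were higher and 10 lower, with XPA at 0.79 and LIG3 at -1.28, and the median of -0.08 became 0.02 with upper quartile scaling. Of 18 ATR checkpoint genes, 3 were higher and 8 lower, the higher ones CDC25A (0.73), ATRIP (0.63) and HUS1 (0.40), with TOPBP1 at -1.47, and the median of -0.07 became 0.03 with upper quartile scaling. Of 19 NF-kB and cytokine genes, 8 were higher and 7 lower (median -0.18), with IER3 at 1.25 and NFKB1 at -1.63. Of 22 interferon-stimulated genes, 5 were higher and 5 lower (median -0.24), the higher ones ISG20 (2.41), IFI27 (2.33), IFI6 (1.51), IRF1 (1.16) and ISG15 (0.57). The lower ones included RIGI (-2.22), IFIH1 (-0.60) and IRF9 (-0.54), of which RIGI and IFIH1 encode sensors of double-stranded RNA. Of 24 genes of cholesterol synthesis and uptake, 12 were higher and 8 lower, with IDI1 at 1.08, and the median of 0.12 became -0.25 with library totals alone. None of the 24 rose in WT and 16 fell there, and in CSB_KO 8 rose and 12 fell. Of 18 heat shock genes, 8 were higher and 4 lower, with HSP90AB1 at 1.04 and the lower ones HSPA4L (-1.24), HSPA4 (-0.91), CHORDC1 (-0.31) and HSPA1B (-0.81, near-identical to HSPA1A), and the median of 0.13 became -0.24 with library totals alone. Of 30 splicing regulators, 13 were higher and 11 lower, with SRSF6 at 1.26 and QKI at -2.000, and the median of 0.03 became -0.34 with library totals alone. The replication histones were the exception, and of 16 tested 9 were higher and 2 lower (median 0.93). Their median was 0.56 to 1.03 over the scalings, and 12 of the 16 lay above the median of their own span class. H2BC12 was at 1.65 and the lower ones were H1-3 (-3.78) and H1-4 (-1.49), in a family of near-identical genes whose main transcripts lack the poly(A) tail.

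Markers of other cell types stayed low with few exceptions. Of 8 blood cell markers only CD14 passed 1 CPM in any group, with 0.427, 0.381 and 0.5205 CPM in untreated WT, 1.56, 2.17 and 1.73 in WT at 20 h, 0.219, 0.493 and 0.279 in untreated CSB_KO and 22.7, 20.1 and 22.98 in CSB_KO at 20 h (interaction 3.91 ± 0.36, adjusted p = 2.51e-14 by edgeR). The summed level of the 8 was 21.8 to 23.6 CPM in CSB_KO at 20 h and 1.84 to 2.295 in WT at 20 h, and the other 7, PTPRC, the common leukocyte marker, included, stayed under 1 CPM. Of 6 squamous epithelium markers only KRT10 passed 1 CPM, and it was higher (1.24 ± 0.12). Of 8 fibroblast markers, COL1A1 passed 1 CPM in each group and PDGFRA in 2 of the 4, and PDGFRA was lower (-1.35 ± 0.32) and COL3A1 higher (1.71 ± 0.60). Of 12 kidney epithelium and HEK293 markers tested, 6 were lower and 2 higher (median -0.23), beside 36.3% and 30.9% of all genes tested. The cadherin gene CDH2 (245 kb) was lower (-1.03 ± 0.06) and the keratin gene KRT8 (0.56 ± 0.10) and the cadherin gene CDH1 (0.94 ± 0.29) were the 2 higher ones.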
